A study of Mus musculus with 8 samples.

Results

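The genes described here are 33 genes of the B lymphocyte lineage, measured in liver of fetal mice whose mothers were on food restriction (FR) and in liver of control fetuses. They were taken by gene symbol from the array's gene names (Ighm is listed there under its older name Igh-6) and are 33 of 28104 genes on the array. They are given by assigned stage, from early to late: 5 progenitor genes, 10 pro-B genes, 8 pre-B genes and 10 genes assigned to more mature B cells. All were on the array, with 56 probes of 60 bases each, and 32 could be tested in fetal liver. The exception was Rag2, whose single probe was well above background on 4 of 6 arrays for FR and on 5 of 6 for control.

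Before birth the liver is a main site of blood formation, and B lymphocytes arise there from lymphoid progenitors under the interleukin 7 receptor. Pro-B cells switch on the transcription factors EBF1 and PAX5, cut and join the immunoglobulin heavy chain gene with the RAG enzymes, and pair the new heavy chain with a surrogate light chain made of VpreB and lambda 5 proteins. Pre-B cells signal through that pre-B cell receptor and rearrange the light chain, and mature cells carry IgM with the signalling partners CD79A and CD79B.

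All animals were C57BL/6J mice. The FR mothers received 50% of the chow eaten by the control group from gestation day 10 to 17, while the control mothers ate freely. On gestation day 18 the liver was collected from 6 mothers of either diet, with 2 male fetuses each. Each array carried 1 FR pool and 1 control pool of liver RNA in different dyes, and each pool pair was run on 2 arrays with the dyes exchanged. There were 3 fetal pool pairs (1 of pools of 6 animals on slide 1, and 2 of pools of 3 animals on slide 2, called replicates 1 and 2) and 1 maternal pair of pools of 6 on slide 1. The labels do not say which litters entered which pool, so fetal pools may share mothers, and p-values measure the spread between pools. Whole liver was used, so fewer B lineage cells and less RNA per cell cannot be told apart.

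Ratios are log2 of FR over control, averaged over the 2 arrays of a pair, so that -1 is a 2-fold lower signal in FR. Levels are log2 of the normalized intensity of 1 dye channel, and may be compared between pools for 1 probe but not between genes. Array medians of Cy3 intensity lay between 69.1 and 284, those of Cy5 intensity between 122 and 310, both lowest on the maternal arrays. The turned ratios of dye-exchanged arrays correlated at 0.58 to 0.77 across probes, and those of the 3 fetal pairs at 0.72 to 0.83 across genes, which are not independent replicates. The 9 hepatocyte genes tested were measured in every fetal pool, with summed log2 levels of 19.17 to 19.37 in FR and 19.55 to 19.73 in control.

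In fetal liver, 21 of the 32 tested B lineage genes fell in FR and none rose, at an adjusted p under 0.05 in limma over 21097 genes. Over all genes tested, 14.2% were called lower and 11.4% higher. The members' median ratio was -0.67, beside 0.01 over all genes, and 30 of 32 members lay below 0. The 11 members that were not called had ratios between -0.62 and 0.03. By level, all 3 FR pools lay below all 3 control pools in 22 of the 33 members, against 12.5% of all genes, and all 3 lay above in no member, against 9.89%. Of the 21 genes that fell, 8 did so by more than 2-fold, 38.1% of them, against 4.43% of all genes called lower. The members were chosen with earlier results of these data known, so these contrasts with all genes describe the list and are no test. In a list of 26 further B lineage genes tested, 9 fell and 3 rose, with a median of -0.13.

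Genes assigned to each stage were among those that fell. Lef1, Bach2 and Sox4 of the progenitor group also act in pro-B or pre-B cells, so this group does not single out progenitors. Likewise Ighm of the mature group is already used by pro-B cells, as described above, so that group does not single out mature cells. A separate list of 15 lymphoid and stem cell progenitor genes had a median of -0.07. Among progenitor genes 4 of 5 fell, among pro-B genes 6 of 9 tested, among pre-B genes 6 of 8 and among mature B cell genes 5 of 10. The stage medians were -0.81, -0.80, -1.10 and -0.39 on the log2 ratio scale. No member of any stage was called higher.

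The count rests on the pools of 6: without that pair no gene on the array passed in limma. The members' smallest adjusted p of limma was then 0.0519. An unadjusted p under 0.05 was reached by 23 members, a limit at which the share over all genes was not computed. Within slides, the members' median ratio was -0.63 on slide 1 (1 pair, no test) and -0.73 on slide 2 (2 pairs). With slide as a term in the limma fit 19 members were called lower, beside 5.92% of all genes.

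**Figure D1:**
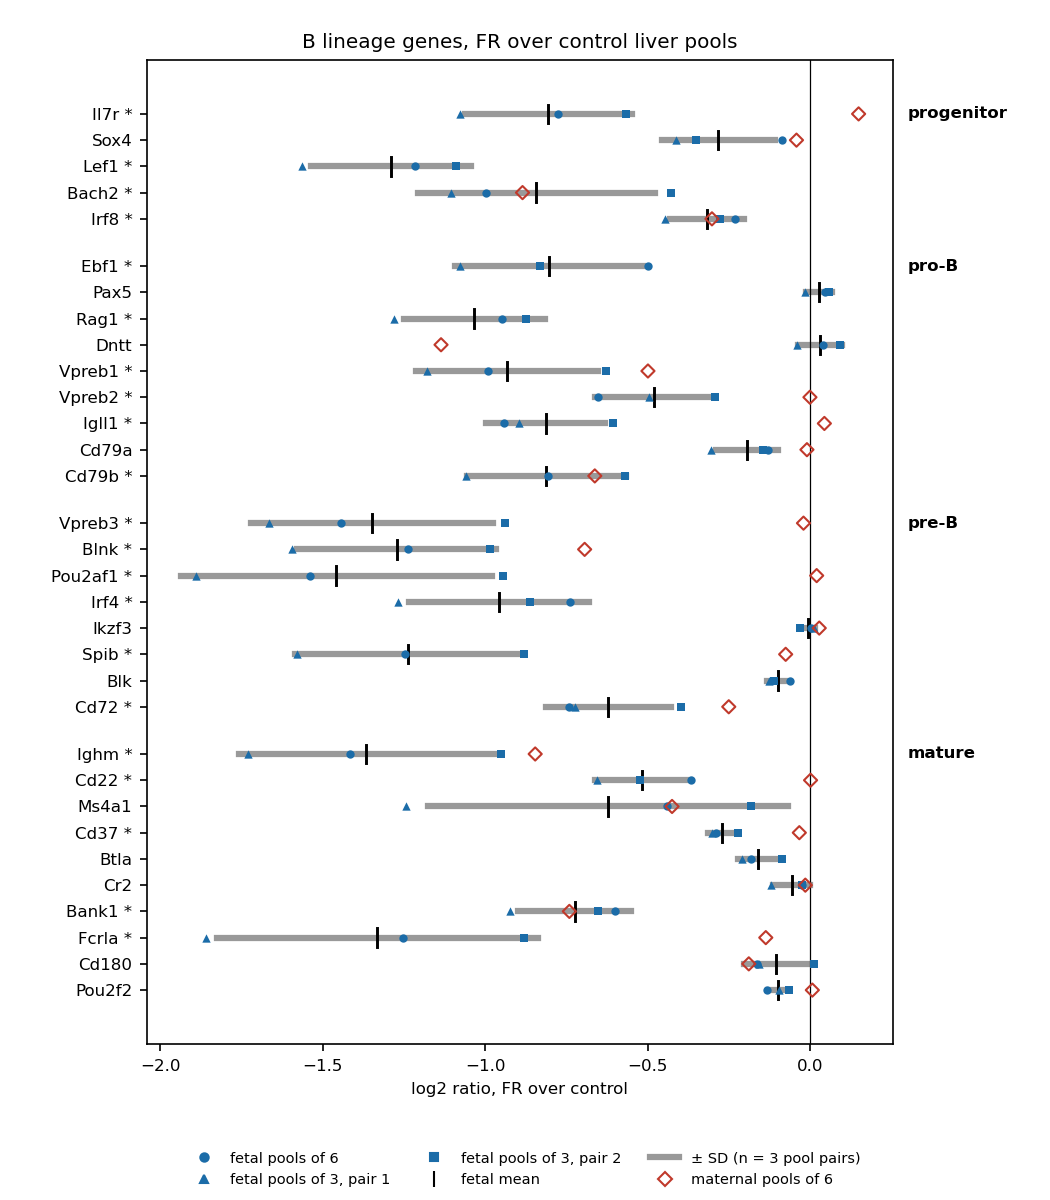
Log2 ratio of FR over control (x axis) for the 32 tested B lineage genes, grouped by stage. Filled symbols are the 3 fetal pool pairs, the black tick their mean and the grey bar ± SD, open diamonds are the maternal pair where it was measured, and a star marks genes called lower in fetal liver. The fetal points of the 21 starred genes lie between -0.22 and -1.89. The means of Pax5, Dntt and Ikzf3 are 0.03, 0.03 and 0.00 by the probe used, and another Ikzf3 probe gave -0.26.

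Il7r, the receptor chain for interleukin 7, had log2 levels of 7.90 in the FR pool of 6 and 7.42 and 7.68 in the FR pools of 3, against 8.67, 8.50 and 8.25 in the control pools in the same order. All FR pools were below all control pools. The mean ratio was -0.81 ± 0.26 (SD, n = 3 pool pairs; limma adjusted p = 0.00992). Lef1, a transcription factor of the WNT pathway used by dividing pro-B cells, had 7.66, 7.54 and 8.07 in FR pools, against 8.88, 9.10 and 9.16 in control pools. The groups were far apart, with every FR pool more than 1 log2 unit below its control. Its ratio of -1.29 ± 0.25 (n = 3) had the smallest adjusted p of the members, 0.00498 in limma.

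Bach2, a repressor that holds back the plasma cell programme and acts in pre-B cell selection, fell, with a ratio of -0.84 ± 0.36 (n = 3, limma adjusted p = 0.0160). Its levels were 10.25, 9.73 and 10.20 in FR pools and 11.25, 10.84 and 10.63 in control pools, without overlap. Irf8, which acts in both lymphoid and myeloid progenitors, fell with a ratio of -0.32 ± 0.11 (limma adjusted p = 0.0211, n = 3), and was not called without replicate 1 of the pools of 3 (limma adjusted p = 0.0582) or with slide as a block (-0.30, limma adjusted p = 0.0699). Sox4, needed for the step from pro-B cell to pre-B cell, gave -0.28 ± 0.17 (n = 3) and missed the threshold in limma with an adjusted p of 0.0522. Its FR and control levels overlapped.

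**Figure D2:**
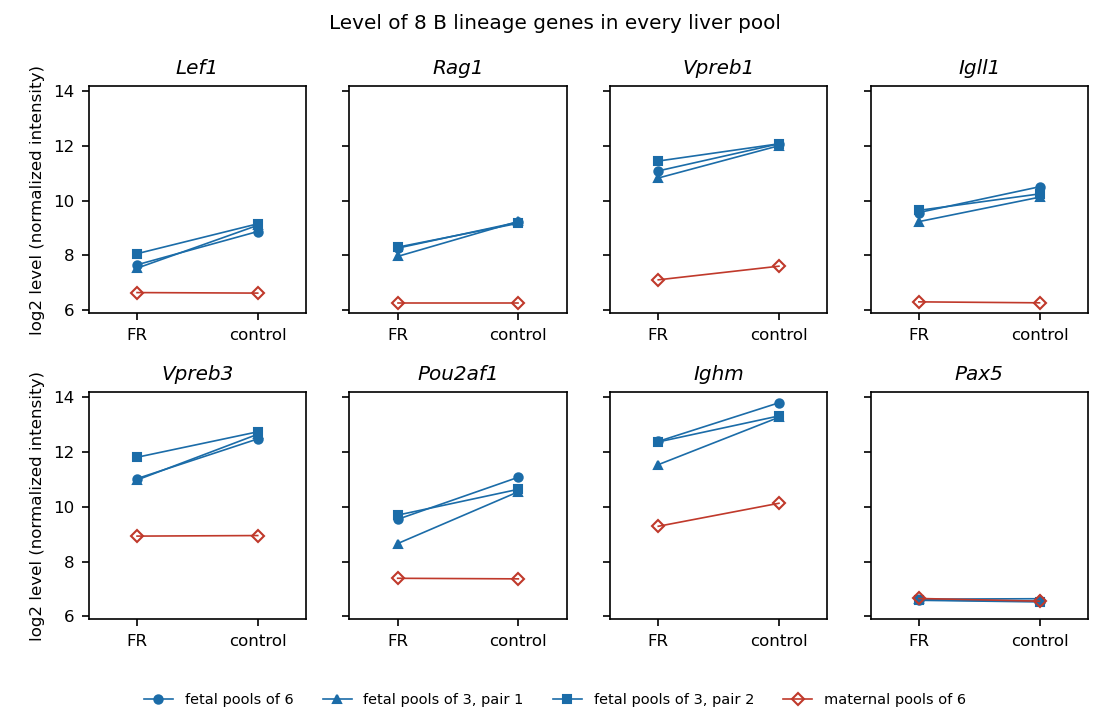
Log2 level of 8 B lineage genes (y axis, normalized intensity of 1 channel) in every FR pool (left) and its control pool (right), with a line joining the 2 pools of an array pair. Blue lines are the 3 fetal pairs and red the maternal pair. All fetal lines climb from FR to control except those of Pax5, which are flat. The maternal probes of Lef1, Rag1, Igll1 and Pax5 were not well above background.

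Among pro-B genes, Ebf1, the factor that commits progenitors to the lineage, had levels of 7.25, 7.21 and 7.31 in the FR pools, close to each other, against 7.75, 8.29 and 8.14 in the control pools. No FR pool reached a control pool. The ratio was -0.80 ± 0.29 (n = 3, limma adjusted p = 0.0117). Pax5, which keeps B cells in their lineage, had levels of 6.60, 6.63 and 6.58 in FR pools and 6.55, 6.64 and 6.53 in control pools, which overlap. Its ratio of 0.03 ± 0.04 (n = 3) had an adjusted p of 0.667 in limma, and its interval at 95% reached 0.12 either side of the mean. The control fetal level on slide 1 was the same as that of the control mothers (6.55 in both), where the probe was not well above background, so these values are near the background.

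Rag1, the recombinase subunit that cuts the immunoglobulin genes, had levels of 8.27, 7.97 and 8.30 in FR pools, against 9.22, 9.25 and 9.18 in control pools. The control pools differed among themselves by less than 0.1 log2 unit, and all FR pools lay below them. The ratio was -1.03 ± 0.22 (n = 3, limma adjusted p = 0.00561). Rag2, its partner, could not be tested, and its FR levels of 6.59, 6.46 and 6.56 overlapped the control levels of 6.59, 6.57 and 6.61, all near the background. The probes of the 2 genes lie 6368 bases apart on chromosome 2 (mm9). Dntt, which encodes the terminal transferase that adds bases at the joins, had FR levels of 8.12, 8.17 and 8.15, inside the control range of 8.06 to 8.22. Its ratio of 0.03 ± 0.07 (n = 3) was not called, with a limma adjusted p of 0.674 and a 95% interval of 0.13 either side. These Dntt values rest on 1 of 3 probes, and the others were above background on no fetal array for either diet.

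The surrogate light chain genes are shown with probe sequences because they resemble each other. These are 60-base probes in the mm9 build, printed 5′ to 3′ in lower case. The Vpreb2 probe (on the plus strand of chromosome 16 from base 17980689 to 17980835) crosses an exon junction, the second, dimmer probe of Vpreb3 lies at bases 75412043 to 75412102 of chromosome 10, and the brighter probe of Igll1, which gave its reported value, at bases 16861104 to 16861163 of chromosome 16.
Vpreb2: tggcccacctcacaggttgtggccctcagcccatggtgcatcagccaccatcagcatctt
Vpreb3: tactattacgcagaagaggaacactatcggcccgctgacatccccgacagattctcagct
Igll1: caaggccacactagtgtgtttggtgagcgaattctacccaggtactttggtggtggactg
The longest run of identical bases between probes of different genes of this family was 4 to 9 bases. Probes were compared with each other and not with the transcripts of the related genes. These runs therefore do not show whether a probe tells the genes apart, and cross-hybridisation was not tested.

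Vpreb1, which encodes a VpreB protein, had levels of 11.09, 10.83 and 11.45 in FR pools, against 12.08, 12.01 and 12.08 in control pools. Its ratio was -0.93 ± 0.28 (n = 3, limma adjusted p = 0.00870). Igll1, which encodes lambda 5 and lies 7455 bases from Vpreb1 by its probes on chromosome 16 (mm9), had 9.57, 9.24 and 9.65 in FR pools, against 10.51, 10.13 and 10.25 in control pools. Both genes were lower in all FR pools than in any control pool. The Igll1 ratio was -0.81 ± 0.18 (n = 3, limma adjusted p = 0.00681), and a second, dimmer probe of the gene gave -0.14 ± 0.06. The mean of both Igll1 probes was -0.47 and passed (limma adjusted p = 0.00846), whereas without non-uniform spots only the dimmer probe was left and it did not (limma adjusted p = 0.101). Vpreb2, a close relative of Vpreb1, had 8.40, 8.03 and 8.35 in FR pools, against 9.05, 8.53 and 8.64 in control pools. It fell with -0.48 ± 0.18 (n = 3, limma adjusted p = 0.0156), and was not called without replicate 1.

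Cd79b and Cd79a encode the signalling chains of the B cell receptor. Cd79b had 11.36, 10.98 and 11.50 in FR pools, against 12.17, 12.04 and 12.07 in control pools, which do not overlap. Its ratio was -0.81 ± 0.24 (n = 3, limma adjusted p = 0.00914). Cd79a had 8.02, 7.52 and 7.97 in FR pools, against 8.15, 7.82 and 8.12 in control pools, which overlap. Its ratio of -0.19 ± 0.10 (n = 3) was not called, with a limma adjusted p of 0.0589. The difference between the chains was not tested.

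Pre-B genes had the lowest median ratio of the stages. Vpreb3, a VpreB relative that binds newly made heavy chains, had 11.03, 10.98 and 11.81 in FR pools, against 12.48, 12.65 and 12.74 in control pools. Every FR pool was below every control pool, and the FR pool of replicate 2 stood highest of the 3 FR pools. The ratio was -1.35 ± 0.37 (n = 3, limma adjusted p = 0.00739), and its second probe gave -1.22 ± 0.33. Pou2af1, the coactivator that works with octamer-binding factors, had 9.54, 8.66 and 9.70 in FR pools, against 11.08, 10.55 and 10.64 in control pools. It had the most negative mean of all members, -1.46 ± 0.48 (n = 3, limma adjusted p = 0.00940). Blnk, the adaptor that carries the pre-B cell receptor signal, had 9.26, 9.05 and 9.69 in FR pools, against 10.50, 10.65 and 10.68 in control pools. The groups did not overlap and the ratio was -1.27 ± 0.31 (n = 3, limma adjusted p = 0.00647).

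Spib, an ETS factor of B cells, fell with -1.24 ± 0.35 (n = 3, limma adjusted p = 0.00764). Its FR levels were 8.54, 7.84 and 8.59 and its control levels 9.79, 9.42 and 9.47. Irf4, which acts in pre-B cells as they leave the cycle, had 7.63, 6.84 and 7.13 in FR pools, against 8.37, 8.11 and 7.99 in control pools. The ratio was -0.96 ± 0.28 (n = 3, limma adjusted p = 0.00826), and for both genes no FR pool reached a control pool. Cd72, an inhibitory receptor, fell with -0.62 ± 0.19 (n = 3, limma adjusted p = 0.0104), and its second probe gave -0.88 ± 0.25. Ikzf3, which encodes the factor Aiolos, gave a ratio of 0.00 with an SD of 0.02 by the probe that was used (n = 3, limma adjusted p = 0.947). Other probes of the gene gave -0.26 ± 0.09 and 0.04 ± 0.05. The former was above background on all 6 fetal arrays for both diets, with pair values of -0.19, -0.36 and -0.22. It passed in a limma fit over all probes above background (adjusted p = 0.0292), so the Ikzf3 result depends on the probe. Blk, a kinase of the B cell receptor pathway, gave -0.10 ± 0.03 (n = 3) and was not called in limma, with an adjusted p of 0.164.

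Promoter windows of 3 members are shown because their letters hold motifs of B cell factors. They are the 250 bases before the start of the gene from RefSeq (GRCm38), 5′ to 3′, with motif matches in capitals. The motifs are ATGCAAAT (octamer), AGGAAGT (PU.1), CAGGTG (E-box) and the EBF motif, each on either strand. Vpreb3 is on the plus strand of chromosome 10 (75948050 to 75948299), Blnk on the minus strand of chromosome 19 (40994222 to 40994471) and Cd22 on the minus strand of chromosome 7 (30879029 to 30879278).
Vpreb3: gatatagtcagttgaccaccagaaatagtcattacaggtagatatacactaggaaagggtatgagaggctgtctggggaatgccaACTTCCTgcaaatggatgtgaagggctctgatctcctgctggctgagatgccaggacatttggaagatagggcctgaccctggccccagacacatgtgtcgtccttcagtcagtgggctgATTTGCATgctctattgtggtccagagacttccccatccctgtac
Blnk: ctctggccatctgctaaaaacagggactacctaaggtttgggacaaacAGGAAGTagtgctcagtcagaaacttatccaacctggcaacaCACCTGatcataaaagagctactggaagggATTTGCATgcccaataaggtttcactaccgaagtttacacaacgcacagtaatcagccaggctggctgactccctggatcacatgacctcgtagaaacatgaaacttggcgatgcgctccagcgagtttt
Cd22: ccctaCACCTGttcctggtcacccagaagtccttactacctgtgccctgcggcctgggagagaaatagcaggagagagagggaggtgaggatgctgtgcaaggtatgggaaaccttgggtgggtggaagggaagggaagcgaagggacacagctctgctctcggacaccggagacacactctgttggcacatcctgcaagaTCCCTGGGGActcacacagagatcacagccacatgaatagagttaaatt
The octamer stands at -45 to -38 from the start of Vpreb3 and at -130 to -123 in Blnk, and the EBF motif at -49 to -40 in Cd22. Windows of 250 bases before to 50 bases after a start were in the RefSeq table for 28 members (Lef1 has 4, and Irf8, Ebf1 and Cd180 have 2). The octamer was in the windows of 2 of the 28 (7.14%), beside 1.97% of the 27025 genes with a window, and the EBF motif in 1 (3.57%), beside 1.06%. AGGAAGT was in 9 (32.1%) beside 10.7%, and CAGGTG in 13 (46.4%) beside 22.6%. The E-box CAGCTG was in 6 (21.4%) beside 18.3%, CTTTGAA (TCF/LEF) in 1 (3.57%) beside 5.93%, and TGTTTAC (FOXO) in 0 beside 4.05%. No overlap between these motifs was removed. The matches describe letters only, and the members were not chosen for them.

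Of the genes assigned to the mature group, which does not single out mature cells, 5 fell. Ighm, the IgM heavy chain, had the levels 12.39, 11.54 and 12.37 in FR pools, against 13.80, 13.27 and 13.32 in control pools. All FR pools were below all control pools. The ratio was -1.37 ± 0.39 (n = 3, limma adjusted p = 0.00773). Fcrla, an intracellular Fc receptor-like protein of B cells, fell with -1.33 ± 0.49 (n = 3, limma adjusted p = 0.0113), with 8.39, 7.59 and 8.43 in FR pools and 9.65, 9.45 and 9.31 in control pools. Bank1, a scaffold of B cell signalling, fell with -0.72 ± 0.17 (n = 3, limma adjusted p = 0.00736), with 8.09, 7.71 and 7.68 in FR pools and 8.69, 8.63 and 8.33 in control pools. These groups, too, did not overlap. Cd22, an inhibitory receptor of B cells, fell with -0.52 ± 0.15 (n = 3, limma adjusted p = 0.0103), although a dim second probe gave -0.03 ± 0.07. Cd37, a tetraspanin, fell with -0.27 ± 0.04 (n = 3, limma adjusted p = 0.0167), was not called without replicate 1, without loess or with slide as a block, and its FR and control levels overlapped.

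The other 5 mature genes did not pass. Ms4a1, which encodes CD20, had a ratio of -0.62 ± 0.55 (n = 3) with pair values of -0.44, -1.25 and -0.18, and an adjusted p of 0.0858 in limma (0.0340 at the lowest over the settings tried, of which it passed in 2). Its FR levels of 7.75, 6.98 and 7.95 were all below the control levels of 8.19, 8.22 and 8.13. Btla, an inhibitory receptor also of T cells, gave -0.16 ± 0.06 (limma adjusted p = 0.0693, n = 3) and passed the background filter through the control channel, with 5 of 6 FR arrays above background. Cr2 (complement receptor 2), Cd180 (a toll-like receptor relative) and Pou2f2 (the octamer-binding factor OCT2) gave -0.06, -0.10 and -0.10, with limma adjusted p-values of 0.428, 0.232 and 0.168 (n = 3).

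**Figure D3:**
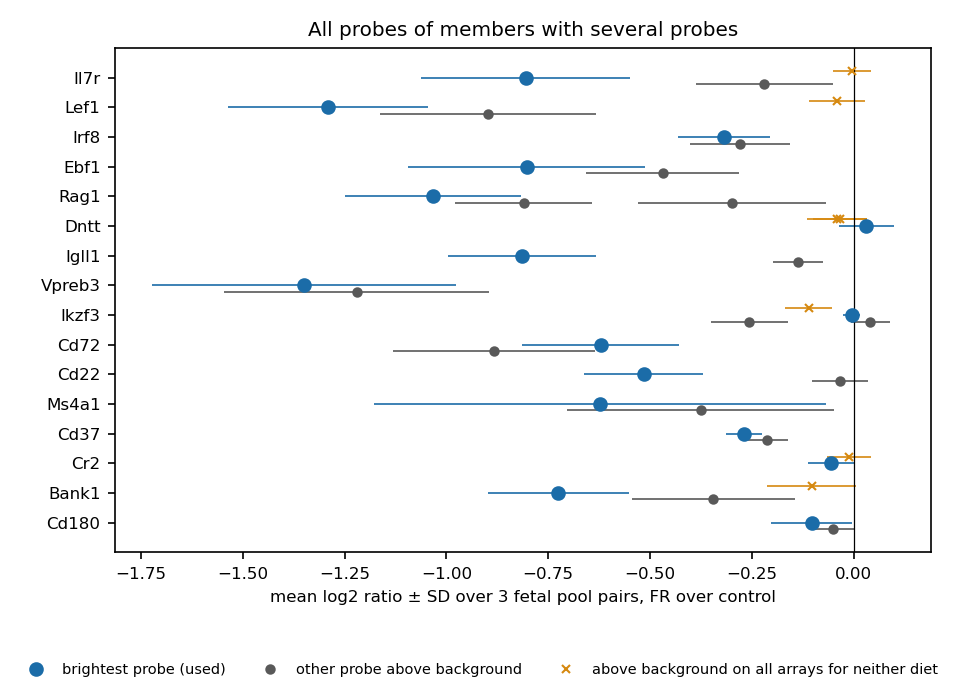
Mean log2 ratio of FR over control ± SD over the 3 fetal pool pairs (x axis) for every probe of the 16 members with several probes. Large blue points are the brightest probe, which gave the reported value, grey points are other probes above background and orange crosses are probes that were above background on all arrays for neither diet. Second probes of Il7r, Igll1, Cd22 and Bank1 lie nearer to 0 than the first, that of Cd72 farther from it.

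Of the 16 members with several probes, 14 had more than 1 that passed the background filter, and 48 of 56 member probes passed in all. For Rag1 the 3 probes gave -1.03, -0.81 and -0.30, for Il7r -0.81 and -0.22, for Ebf1 -0.80 and -0.47, and for Lef1 -1.29 and -0.90. In these 4 genes the probe nearest to 0 was the dimmest. For Cd37 the 2 probes differed by less than 0.1 log2 unit.

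The 3 fetal pairs differed in the size of the members' ratios. Replicate 1 of the pools of 3 gave the most negative ratio in 26 of 32 members (81.2%) and replicate 2 the least negative in 22 (68.8%). The medians over the members were -0.63 in the pools of 6, -0.91 in replicate 1 and -0.48 in replicate 2. Among the 3004 genes called lower over the whole array, replicate 1 was most negative in 60.0% and replicate 2 least negative in 62.9%, and over all genes tested in 34.5% and 38.7%.

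In the mothers, 25 members were measured and none was past 2-fold on both arrays, beside 1.18% of 19507 genes past that limit downward and 1.00% upward. There was 1 maternal pair, so the maternal ratios by themselves have no test. Of the 25, 18 had ratios below 0, some of them close to it (Cd79a -0.01, Cr2 -0.01, Vpreb3 -0.02). The share below 0 over all genes in the mothers was not computed. Dntt had a maternal ratio of -1.14 (-0.92 and -1.35 in the 2 dye orientations), and a second Dntt probe gave -1.05. Bach2 had -0.89, Ighm -0.85, Bank1 -0.74, Blnk -0.69 and Cd79b -0.66, while Il7r, whose control channel was above background on 1 of 2 maternal arrays, had 0.15 and Pou2af1 0.02. With the processed signals the maternal ratio was -1.63 for Bank1, 1.00 for Il7r, -1.25 for Dntt and -0.01 for Pou2af1, and that of Vpreb1 was -1.86 in place of -0.50. Lef1, Ebf1, Pax5, Rag1, Rag2, Irf4, Btla and Blk could not be measured there.

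The maternal minus fetal difference of the FR response was tested in limma for 25 members, over 18969 genes of which 2.05% were called higher in mothers and 2.14% lower. The spread came from the fetal pairs alone and was taken to hold for the 1 maternal pair, so a response of the mothers and the variation of a single pool pair cannot be told apart. Of the members, Dntt alone was called, with -1.17 (standard error 0.10, limma adjusted p = 0.0128), from ratios of -1.14 in the mothers and 0.03 in the fetuses. The next largest differences were positive and did not pass: 1.48 for Pou2af1 (95% interval of 0.92 either side, limma adjusted p = 0.0952), 1.33 for Vpreb3 (0.0737), 1.20 for Fcrla (0.149), 1.16 for Spib (0.0872) and 0.96 for Il7r (0.0748), where the values in brackets are adjusted p-values of limma. Igll1 was compared through its dimmer probe. Without the pools of 6 the Dntt difference was -1.16 and was not called (limma adjusted p = 0.111).

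By level, 21 of the 23 members measured in both tissues had a higher signal in the control fetal pool of 6 than in the control maternal pool of the same slide, a comparison with 1 pool per tissue and no test. The share over all genes was not computed, so the count cannot be called particular to the members. Some of these were near 1-fold, such as Ikzf3 (1.04) and Pou2f2 (1.05). Vpreb1 was 22.2-fold higher in the fetal pool, Pou2af1 13.1-fold, Ighm 12.7-fold, Vpreb3 11.5-fold and Cd79b 7.37-fold. For 8 members the maternal probe was not well above background and only a bound can be given. Igll1 was at least 18.9-fold higher in the fetal pool, Rag1 at least 7.68-fold, Lef1 at least 4.76-fold, Irf4 at least 3.16-fold and Ebf1 at least 2.76-fold. Dntt went the other way, with a level of 8.08 in the control fetal pool and 10.93 in the control maternal pool, and Cr2 was 0.19 lower in the fetal pool on the log2 scale (0.87 higher without quantile normalization between arrays). Without that step the differences of all members shifted upward in the fetal direction, to 5.40 in place of 4.47 for Vpreb1 and to -1.79 in place of -2.85 for Dntt, on the log2 scale. Il7r and Btla were above background on 1 of the 2 maternal arrays and are not counted among the 23.

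**Figure D4:**
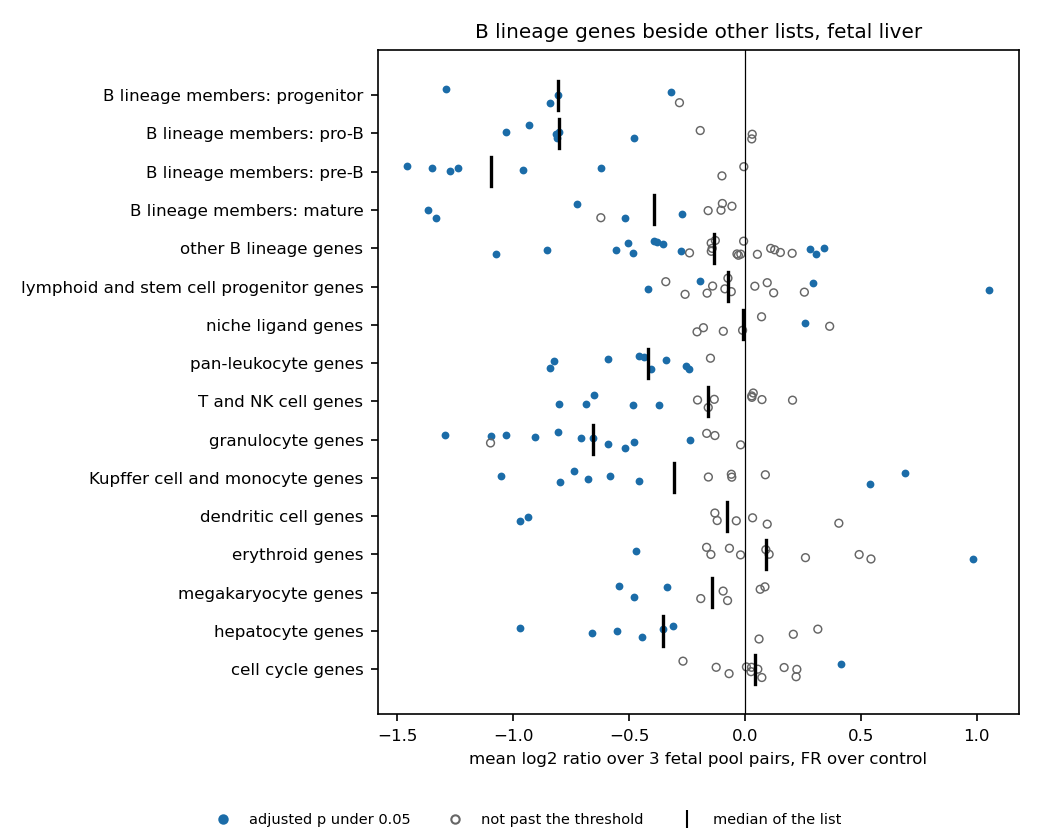
Mean log2 ratio of FR over control in fetal liver (x axis) for each tested gene of the B lineage members by stage and of other lists. Filled points passed an adjusted p of 0.05 in limma, open points did not, and the black tick is the median of the list. The members' medians of -0.39 to -1.10 lie beside -0.13 for other B lineage genes and -0.66 for granulocyte genes.

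Of 26 further B lineage genes tested, 9 fell and 3 rose, with a median of -0.13, beside 14.2% of all genes called lower and 11.4% called higher. The part that rose is near the share over all genes. Among those that fell were Mzb1, an endoplasmic reticulum chaperone (-1.07), Bst1 (-0.85), the kinase Syk (-0.50), the phospholipase Plcg2 (-0.48) and Cd93 (-0.39). The 3 that rose, named after their values were seen, were Cd40 (0.34), Tnfrsf13b (0.30) and Cd38 (0.28). Tcf3, which encodes the E2A factor upstream of Ebf1, gave -0.01 and was not called.

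Counts in the lists of other cells and their ligands stand beside 14.2% of all genes called lower and 11.4% called higher. Of 15 lymphoid and stem cell progenitor genes 2 rose and 2 fell, and the largest changes were those of Hlf (1.06) and Gfi1 (-0.42). Hlf had a ratio of 1.76 in the maternal pair (no test), so its rise was not particular to fetal liver. Flt3 gave 0.10 and was not called. The niche gene Cxcl12 rose (0.26), 1 of 7 tested, while Il7, the ligand of Il7r, did not enter the test. Of the leukocyte genes shared by blood cells 9 of 10 fell, all 10 being measured, with Cd52 at -0.84 and Ptprc at -0.82, and the list's summed log2 level was 15.50 to 15.78 in FR pools and 15.96 to 16.23 in control pools. Granulocyte genes fell in 11 of 15 (Epx -1.29, Lyz2 -1.10), with summed levels of 18.24 to 18.37 in FR and 18.95 to 19 in control pools. Neither set of sums overlaps between diets, and the same holds for further B lineage, T and NK cell, dendritic cell, megakaryocyte and hepatocyte genes. Their part in the members' result was not tested.

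T and NK cell genes fell in 5 of 13, led by Gzmb (-0.80) and Nkg7 (-0.69), with summed levels of 11.87 to 12.11 in FR and 12.22 to 12.34 in control pools, and Cd247, Ncr1 and Prf1 did not pass the background filter. Kupffer cell and monocyte genes fell in 6 and rose in 2 of 12, with Clec4f at -1.05 and Cd74 at -0.80. Their summed levels of 15.24 to 15.34 in FR and 15.12 to 15.26 in control pools overlap. Within each pair the FR sum was the higher, with 15.24, 15.34 and 15.33 against 15.12, 15.26 and 15.16. Bright genes weigh most in such sums. Dendritic cell genes fell in 2 of 8, Ly6d (-0.97), which also marks B-committed lymphoid progenitors, and Bst2 (-0.94), with summed levels of 12.47 to 12.71 in FR and 12.99 to 13.12 in control pools, and Clec9a and Siglech did not enter the test. Hepatocyte genes fell in 6 of 9 (Ttr -0.97, Fgb -0.66), megakaryocyte genes in 3 of 8 (Ppbp -0.55, Treml1 -0.48). Among 11 erythroid genes Hba-x rose (0.98) and Klf1 fell (-0.47). The cell cycle gene Ccnb1 rose (0.41), 1 of 12. The part of these lists in the members' result was not tested.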

How the data were processed

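Agilent 2-colour arrays compared FR with control liver RNA in 3 fetal and 1 maternal pool pair (8 arrays, 1000 ng of RNA per labelling). Scanner files give Cy3 and Cy5 intensity, per the file headers, from Agilent Feature Extraction, in version 9.5.3.1 for slide 1 (also in the submitters' processing notes) and 11.0.1.1 for slide 2. The deposited table holds log10 of Cy5 over Cy3, and matched log10 of the scanner's processed signals within 5e-08, with array medians of -0.0184 to 0.0155. They are not turned for the dye exchange, and served as an alternative. Flags of 0 or 1 per spot, deposited with the files, gave the background filter and outliers. How the authors made these values beyond that is not given in the sources used here.

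The scanner files were read and analysed in R 4.3.3 with limma 3.58.1. The spot mean was used on slide 1 and the spot median on slide 2, whose files have no mean. Normexp (offset 50) corrected the background, then loess normalized each array. The log2 ratios computed here, unlike the deposited log10 values, were turned to FR minus control and averaged over the 2 dye orientations. Population outlier spots were left out, while spots flagged as non-uniform were kept. A gene was read from its brightest probe well above background for 1 diet on all 6 fetal arrays. Fetal ratios were tested against 0 with limma (lmFit, eBayes, Benjamini-Hochberg over all genes tested), and the maternal minus fetal difference likewise, with the lone maternal pair assumed to vary like the fetal pairs. Levels are single-channel values after Aquantile. Gene names of 41174 probes came from RefSeq by accession (26918), symbol (5082) or older symbol (817). Every member is reported. Of the other lists, up to 6 further B lineage genes and up to 2 of every other list are named by size among those called, and 1 gene that this rule names is not reported here. The members and lists were chosen with earlier results of these data known. The descriptions also mention another study's samples and the titles were followed. The number of arrays limits the precision.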

Additional observations from a re-analysis of the deposited data

Results flagged for a closer look

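Of the 3 Dntt probes, 1 passed the background filter in the fetuses, and the probe across an exon junction was above background on no array. By the probe that passed, the ratio of FR over control for Dntt was -1.14 in the maternal pool pair and 0.03 on average in the fetal pairs. The difference, -1.17 on the log2 scale (maternal minus fetal), passed in limma (adjusted p = 0.0128) under the assumption that the lone maternal pair varies like the fetal pairs, since it has no spread of its own. Without the fetal pools of 6 it was -1.16 and was not called (limma adjusted p = 0.111).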

How the results depend on the processing

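Between 16 and 25 members were called lower over the alternative settings that kept all fetal pairs, all in the same direction, and none was called higher. The smallest counts came without spots marked as non-uniform (16 of 28) and with slide as a block (19). The highest came with the processed signals (25, including Sox4, Btla, Blk and Pou2f2). Over all genes 11.4%, 5.92% and 14.8% were called lower in these settings, in that order. Without non-uniform spots Bach2, Cd79b, Vpreb3 and Ighm had no value, so their reported calls rest in part on spots with that flag. Leaving out each replicate gave 0 to 22 members lower, with 0 without the pools of 6, and 0 to 2944 genes lower and 0 to 2130 genes higher over the array. Over all genes, 714 were called higher without loess, 1845 lower and 1335 higher without non-uniform spots, and 1248 lower and 940 higher with slide as a block. The cause was not tested. Dntt changed sign without loess (-0.020), and Ikzf3 ranged from -0.013 to 0.0072 over the left-out replicates, neither called. Single members of the fetal comparison lost their call 28 times over the settings, 21 of them without the pools of 6, and gained one 12 times.

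For the maternal minus fetal difference, members called higher in mothers numbered 1 with offset 10, 2 with the processed signals, 1 without the filter on dim probes and 0 to 5 over the left-out replicates. Those lower in mothers numbered 2 with the processed signals and 0 to 1 over the left-out replicates. Without loess the sign changed for Bach2 (0.069), Ikzf3 (-0.015), Cr2 (-0.011) and Bank1 (0.021). With the processed signals it changed for Irf8 (-0.0085), Vpreb1 (-0.885), Cd79b (-0.041) and Ms4a1 (-0.142), and with offset 10 for Irf8 (-0.0068). Over the left-out replicates Irf8 ranged from -0.048 to 0.060, Bach2 from -0.173 to 0.166, Ms4a1 from -0.114 to 0.418 and Bank1 from -0.115 to 0.047.

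No paired analysis was possible because the groups share fewer than 2 replicate numbers. Each array already pairs both diets. A random slide block could not be fitted, since it gave no estimate of the correlation. The maternal ratio of Vpreb1, -0.50, was -0.93 with offset 10 and -1.86 with the processed signals. That of Bank1, -0.74, was -1.14 and -1.63, and that of Il7r, 0.15, was 0.32 and 1.00, in the same settings.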
